A study of Mus musculus with 12 samples.

Results

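Nmrk2 and the genes of NAD metabolism were examined in the left atrium (LA) of mice with doxycycline-induced Notch activation (iNICD) and of their littermate controls. The set held 10 genes, taken by name from the 54658 gene names of the deposited count table: Nmrk1, Nmrk2, Nampt, Naprt, Nadsyn1, Nmnat1, Nmnat3, Nnmt, Cd38 and Sirt3. All 10 passed a filter of more than 1 count per 1e6 mapped reads (CPM) in at least 6 libraries. The set was chosen by the levels of Nmrk2, which in control replicate 5 stood far above the other controls, so its values are given as a description with no test, and tests are given for the 9 other genes.

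Controls carried the amHC-rtTA transactivator alone, and iNICD mice carried amHC-rtTA together with TetO-NICD, so that the α-myosin heavy chain promoter limits induction of the Notch1 intracellular domain to cardiomyocytes. All mice, controls included, ate doxycycline chow for 3 weeks, starting at 2 to 3 months of age, and were sampled without a washout. Each LA gave its own library, from 4 female and 2 male controls and from 3 female and 3 male iNICD mice, with 21432632 to 27182038 counts per library. Notch1, whose reads include the transgene, lay between 108 and 131 normalized CPM in controls and between 2975 and 4077 in iNICD, which fits the genotype label of every library. Control replicate 5 stood apart from its group as a whole: in 13.1% of 13471 genes its level differed 2-fold or more from the average of its 5 fellow controls, and in 3.35% for control replicate 2 measured against controls 1, 3, 4 and 6. Results are therefore given with all 12 libraries and with the 11 that leave out control replicate 5. Replicate numbers are those of the titles. The descriptions exchange 2 of them: control replicate 5 is labelled CL_M_C4 there, and control replicate 4 is CL_F_C5.

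NAD is the electron carrier of oxidative metabolism and the substrate that sirtuins, ADP-ribosyltransferases and NAD glycohydrolases consume. Heart cells replace it mostly by salvage. NAMPT converts nicotinamide to nicotinamide mononucleotide (NMN), the kinases NMRK1 and NMRK2 phosphorylate nicotinamide riboside to the same product, and NMNAT enzymes join NMN to an adenylate to give NAD. NAPRT and NADSYN1 act in the parallel route from nicotinic acid. NMRK2 is the striated muscle form of the kinase and is known to be induced in stressed or energy-depleted heart muscle, while NMRK1 is expressed widely.

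Nmrk2 (ENSMUSG00000004939.7, chr10:81198170-81202051, minus strand, GRCm38) differed widely between control atria. Its level was 3.85, 132, 3.60, 8.73, 529.6 and 4.44 normalized CPM in control replicates 1 to 6. In iNICD replicates 1 to 6 it was 0.487, 0.794, 2.26, 7.04, 6.73 and 1.19 normalized CPM. Control replicates 5 and 2, a male and a female, therefore stood far above the other 10 libraries. Of the 6 iNICD libraries, 4 lay below every control, and the other two, iNICD replicates 4 and 5, lay within the range of controls 1, 3, 4 and 6.

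**Figure D1:**
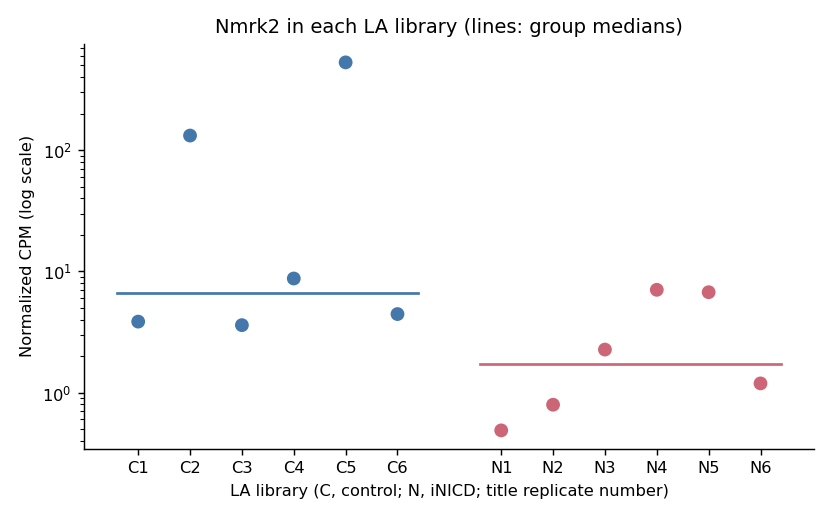
Normalized CPM of Nmrk2 on a log scale in each LA library, with controls (C1 to C6, blue) and iNICD (N1 to N6, red) ordered by title replicate number and a line at each group median. The control points spread from 3.60 to 529.6 and the iNICD points from 0.487 to 7.04, and C2 and C5 alone exceed 100 normalized CPM, at 132 and 529.6.

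The mean of Nmrk2 was 114 ± 210 normalized CPM in controls (SD, n = 6) and 3.08 ± 3.01 in iNICD (SD, n = 6), whereas the medians were 6.59 and 1.73. The control mean fell to 30.5 ± 56.7 without control replicate 5 (n = 5) and to 5.16 ± 2.41 without control replicates 2 and 5 (n = 4). The fitted log2 difference, iNICD minus control, was -5.19 with a standard error (SE) of 1.43 over 12 libraries, -3.31 (SE 1.08) over 11, and -0.74 (SE 0.66) over the 10 without both high controls. As linear ratios of control to iNICD these were 36.6, 9.93 and 1.67. The value over 12 libraries includes the library on which the gene was selected, and the libraries left out were chosen by their high levels, so none of these values is a test. In bulk tissue, fewer cells of a type and less RNA per cell cannot be told apart, here and in what follows.

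Behind these levels stood 11316 counts of Nmrk2 in control replicate 5 and 3575 in control replicate 2, against 87 to 221 in the other controls and 12 to 186 in iNICD. The highest control exceeded the lowest 147-fold, and the highest iNICD library exceeded the lowest 14.5-fold. The SD of log2 CPM was 3.07 in controls, rank 2 of 13541 tested genes, where the median gene had 0.237. This SD includes the library that selected the gene, and without control replicate 5 it was 2.18, rank 12, and without control replicates 2 and 5 it was 0.58, rank 520. In iNICD it was 1.53, rank 85, against a median of 0.168. Among the 9 other genes the largest SD in controls was that of Nnmt, 0.82, and Sirt3 had the smallest, 0.082.

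Nmrk2 shares exon sequence with Atcayos, a gene on the opposite strand, and the strand setting of the counting was not given in the sources used here, so reads of the 2 genes may be mixed. The level of Atcayos was 63.5 normalized CPM in control replicate 5, the lowest of the controls, and 69.9 in control replicate 2, within the control range of 63.5 to 105.5. In iNICD it was 44.1 to 59.3 normalized CPM. The part of shared reads in the counts of Nmrk2 was not tested.

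The bases in front of Nmrk2 and of its widely expressed relative Nmrk1 are shown because Notch signals act at promoters through RBPJ and the HES and HEY repressors, and because the serum response factor SRF binds CArG boxes of muscle genes. Windows of 250 bases before the RefSeq start (GRCm38.p6) were available for 8 of the 10 genes. Both strands were searched for the E-box and N-box letters that HES and HEY proteins bind, CACGTG and, in turn, the looser form CACNAG. They were also searched for the RBPJ letters TGGGAA, for a TATA box with the letters TATAAA, and for the CArG box. The bases outside the annotated gene are printed, with matches in capitals. In Nmrk1 the N-box and RBPJ matches overlap.
Nmrk2, chr10:81202052-81202287, minus strand: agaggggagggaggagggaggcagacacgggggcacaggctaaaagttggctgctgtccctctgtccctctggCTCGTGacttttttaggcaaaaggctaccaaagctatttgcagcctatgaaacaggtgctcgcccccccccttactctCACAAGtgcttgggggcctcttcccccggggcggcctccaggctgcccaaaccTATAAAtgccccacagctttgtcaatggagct
Nmrk1, chr19:18631766-18631949, plus strand: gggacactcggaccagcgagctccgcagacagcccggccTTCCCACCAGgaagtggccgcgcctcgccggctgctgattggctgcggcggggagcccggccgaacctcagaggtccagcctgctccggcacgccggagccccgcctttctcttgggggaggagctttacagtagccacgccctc

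The Nmrk2 window held 2 N-box matches, beginning 177 and 99 bases before the start, and a TATA box match 46 bases before it. It held no match to the E-box, the RBPJ motif or the CArG box. The Nmrk1 window held 1 N-box match at 207 bases and 1 RBPJ match at 211 bases, and no TATA box. The GC content was 58.8% for Nmrk2 and 69.2% for Nmrk1, where the median of 32851 promoters was 52.4%. Of those promoters, 36.7% held an N-box match, 21.6% an RBPJ match, 12.4% a TATA box match, 6.02% an E-box and 1.47% a CArG box. Of the other genes with a window, Nampt and Cd38 held 1 RBPJ match each, and Sirt3 held N-box and RBPJ matches at its listed starts. These matches describe letters in a window, and binding was not measured.

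No other gene of the set differed between iNICD and control LA at an adjusted p under 0.05. Of the 9 genes, 0 were higher and 0 lower with 12 libraries, where 2.78% of all 13541 tested genes were higher and 1.34% lower (edgeR quasi-likelihood test, Benjamini-Hochberg over all tested genes). With 11 libraries the counts were again 0 and 0, where 3.60% of 13499 genes were higher and 2.30% lower. At an unadjusted p under 0.05 the edgeR test counted 1 gene in each fit, Nmnat1, and DESeq2 called 0 after adjustment and 1 before it. DESeq2 called 615 of all 13541 tested genes higher and 444 lower after adjustment. The unadjusted counts were not set against a share over all genes and are no result about the set. The median log2 difference of the 9 genes was -0.03, against -0.006 over all tested genes. With 12 libraries, 8 of the 9 genes had a 95% interval within a 1.5-fold change in either direction, the exception being Nnmt.

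**Figure D2:**
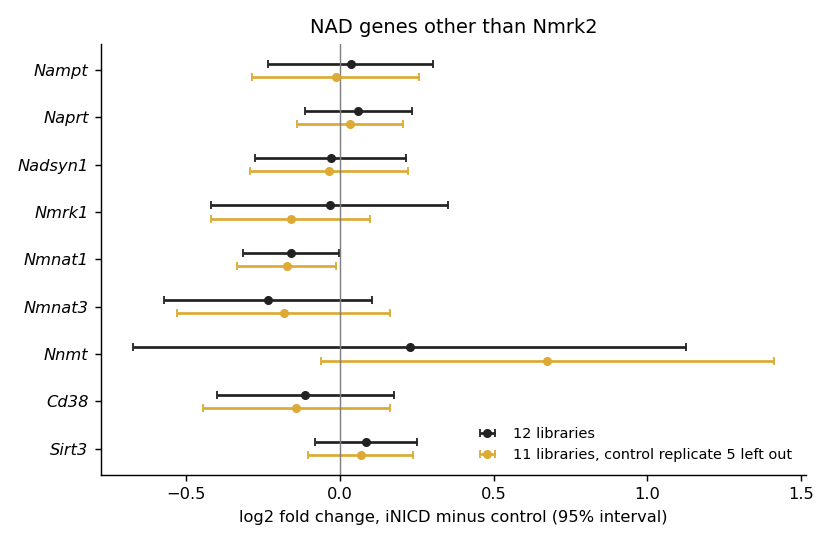
Log2 fold change, iNICD minus control, of the 9 genes other than Nmrk2 with 95% intervals, for 12 libraries (black) and for 11 libraries without control replicate 5 (yellow). The estimates with 12 libraries lie between -0.23 and 0.23, and Nnmt has the widest interval, from -0.67 to 1.13.

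Nampt, the rate-limiting enzyme of salvage from nicotinamide, had the highest median level of the set in both groups. Its level was 98.9, 71.0, 109, 92.7, 77.8 and 110.3 normalized CPM in control replicates 1 to 6 and 87.6, 105, 98.9, 75.5, 91.9 and 114 in iNICD. The groups overlapped over most of their range, and the 2 controls with high Nmrk2 had the lowest Nampt of their group. The means were 93.2 ± 16.1 and 95.5 ± 13.5 normalized CPM (SD, n = 6 each). The difference was 0.03 on the log2 scale (SE 0.12, 95% interval -0.24 to 0.30, edgeR adjusted p = 0.916), and -0.01 with 11 libraries.

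Nmrk1 encodes the kinase that shares its reaction with NMRK2. Its level was 6.42, 4.54, 6.21, 5.65, 2.81 and 5.37 normalized CPM in controls and 5.69, 4.23, 4.78, 4.81, 5.22 and 5.54 in iNICD. Control replicates 5 and 2, highest for Nmrk2, were thus the lowest controls for Nmrk1, as for Nampt. These libraries were also the lowest controls for Parp1, Nadk2 and Slc29a1, and the highest for Nadk and Pnp. A link of these levels to Nmrk2 was not tested. The log2 difference was -0.03 (SE 0.18, 95% interval -0.42 to 0.35, edgeR adjusted p = 0.942), and -0.16 with 11 libraries (adjusted p = 0.523).

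Naprt and Nadsyn1, which carry the route from nicotinic acid, overlapped between the groups. Naprt lay between 10.5 and 12.7 normalized CPM in controls and between 10.7 and 13.7 in iNICD, with a log2 difference of 0.06 (SE 0.08, 95% interval -0.11 to 0.23). Naprt shares exon sequence with Eef1d on the same strand, and its counts may be split with it. Nadsyn1 lay between 7.32 and 8.82 normalized CPM in controls and between 6.63 and 9.70 in iNICD, with a log2 difference of -0.03 (SE 0.11, 95% interval -0.28 to 0.22). The edgeR adjusted p was 0.743 for Naprt and 0.917 for Nadsyn1.

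Nmnat1 and Nmnat3 encode the nuclear and the mitochondrial enzymes of the last step. Nmnat1 was 24.8, 20.7, 24.5, 22.8, 22.1 and 23.4 normalized CPM in controls and 19.9, 21.7, 23.5, 19.7, 20.7 and 18.3 in iNICD. The groups overlapped, with the 4 lowest values in iNICD, and the means were 23.1 ± 1.55 and 20.6 ± 1.82. The log2 difference of -0.16 (SE 0.07) had an unadjusted edgeR p of 0.0467 and an adjusted p of 0.278, and with 11 libraries it was -0.17 with an adjusted p of 0.220. Nmnat3 ranged from 9.89 to 16.6 normalized CPM in controls and from 9.44 to 15.9 in iNICD. Its log2 difference was -0.23 (SE 0.16, 95% interval -0.57 to 0.10, edgeR adjusted p = 0.470).

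The consumers of NAD or nicotinamide completed the set. Nnmt encodes the methyltransferase that removes nicotinamide. Its level was 1.24, 2.44, 1.08, 1.07, 4.68 and 1.34 normalized CPM in controls and 2.15, 3.84, 2.59, 1.10, 2.80 and 1.35 in iNICD. As with Nmrk2, the highest controls were replicates 5 and 2, and the groups overlapped. On the log2 scale Nnmt differed by 0.23 (SE 0.42, 95% interval -0.67 to 1.13, edgeR adjusted p = 0.821) with 12 libraries and 0.67 (SE 0.34, adjusted p = 0.307) with 11. It was 0.97 in females alone and -0.80 in males alone, and the sex-by-genotype interaction had an unadjusted edgeR p of 0.0393 and an adjusted p of 0.916. The male value rests on 2 controls, the outlying replicate 5 at 4.68 and replicate 6 at 1.34 normalized CPM. Nnmt had 26 to 100 counts per library.

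Cd38, which encodes a membrane NAD glycohydrolase of leukocytes and endothelium, was 24.3, 23.3, 22.0, 19.6, 18.6 and 15.6 normalized CPM in controls and 25.4, 20.8, 18.0, 16.5, 16.3 and 17.0 in iNICD. The groups overlapped (log2 difference -0.11, SE 0.13, 95% interval -0.40 to 0.17, edgeR adjusted p = 0.702). In both groups every male library lay below every female library. The female and male means were 22.3 and 17.1 normalized CPM in controls and 21.4 and 16.6 in iNICD. This difference between the sexes was noticed in the values and was not tested.

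Sirt3 encodes the main mitochondrial deacetylase. Its level was 28.4, 27.9, 29.4, 25.6, 26.4 and 29.4 normalized CPM in controls and 24.7, 26.9, 29.4, 31.1, 31.6 and 33.3 in iNICD. The 3 iNICD males had the highest values of all 12 libraries, while the iNICD females overlapped the controls. On the log2 scale Sirt3 differed by 0.08 (SE 0.08, 95% interval -0.08 to 0.25, edgeR adjusted p = 0.608). The interaction of sex and genotype did not pass for any of the 9 genes (lowest edgeR adjusted p 0.916), and it passed for 0 of all 13541 tested genes. Exons of Sirt3 overlap Ric8a and Psmd13 on the opposite strand.

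**Figure D3:**
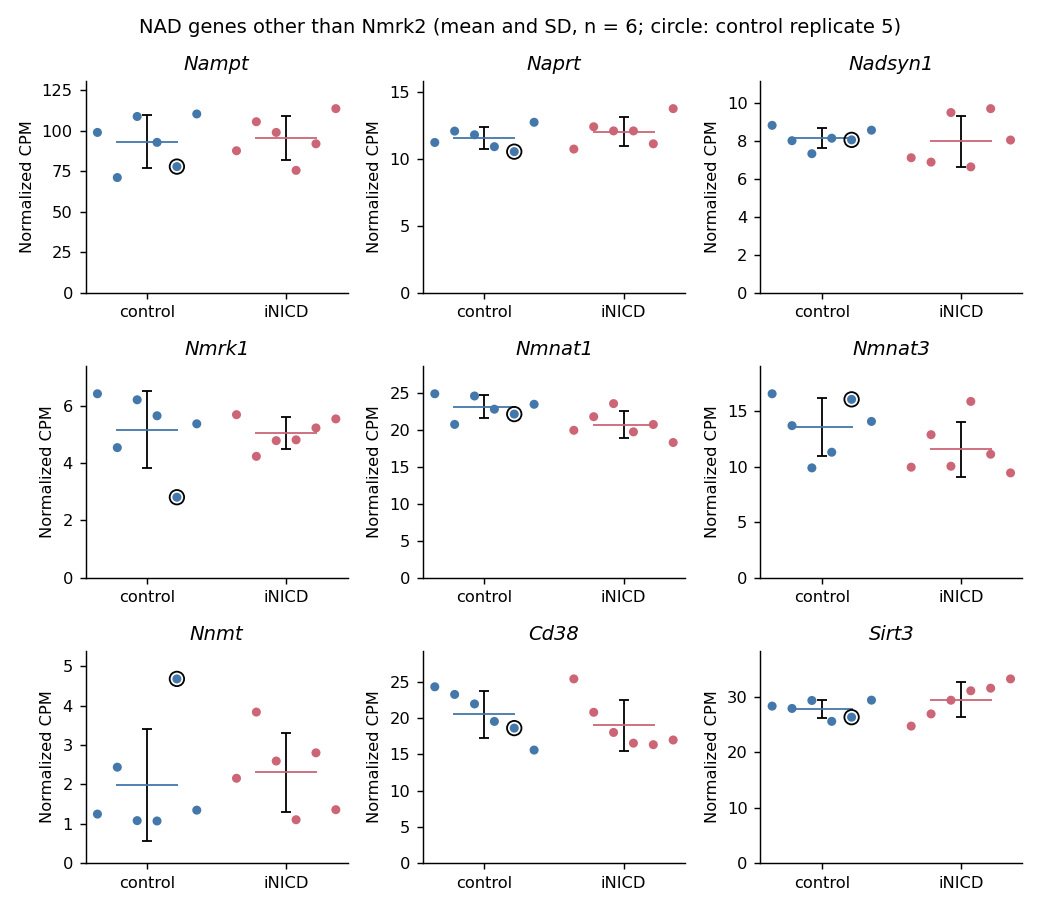
Normalized CPM of the 9 genes other than Nmrk2 in each library, with controls in blue and iNICD in red, coloured lines at the group means, black bars for the SD (n = 6) and a black circle around control replicate 5. The groups overlap for every gene, and the circled library is the highest for Nnmt, at 4.68, and the lowest for Nmrk1, at 2.81.

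Per kilobase of gene length, the median control level was 19.0 normalized CPM for Nampt, 7.60 for Nmnat1, 5.34 for Cd38, 4.91 for Naprt, 4.71 for Sirt3, 3.55 for Nmrk2, 2.77 for Nmnat3, 2.45 for Nadsyn1, 1.65 for Nmrk1 and 0.82 for Nnmt. The control ranges did not overlap between Nampt and Nmnat1, between Nmnat1 and Cd38, or between Nadsyn1 and Nmrk1, and the other neighbours in this order overlapped. The place of Nmrk2 depended on the mouse. It ranked 1 of the 10 genes in control replicates 2 and 5, 4 in control replicate 4, and 8 in the other 3 controls. In iNICD it ranked 10 in replicates 1, 2, 3 and 6, and 6 in replicates 4 and 5.

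Genes outside the set that followed Nmrk2 most closely across libraries had far smaller spreads than its own. Over 12 libraries the highest Pearson correlations of log2 CPM with Nmrk2 included those of Rhoa (0.97), a small GTPase that controls the actin cytoskeleton, Ssr2 (0.969), Ddx39b (0.968), and Adsl (0.967), an enzyme of purine synthesis. Over 11 libraries they were Adsl (0.959), Ddx39b (0.944), Rhoa (0.943), Ywhab (0.941) and Rbpms (0.94), with 3 genes shared. Adsl was 45.0, 54.9, 47.0, 47.2, 69.4 and 46.0 normalized CPM in controls and 41.1, 40.7, 43.4, 49.7, 47.3 and 43.6 in iNICD. Control replicates 5 and 2 were again highest, and within iNICD replicates 4 and 5 were highest for both Adsl and Nmrk2. Over the 10 libraries without control replicates 2 and 5 the correlation was 0.927 for Adsl and 0.869 for Rhoa, although none of the 5 highest genes there were among the 5 over 12 libraries. The number of genes with a correlation of at least 0.9 fell from 162 over 12 libraries to 24 over 11 and 12 over 10. These values describe the libraries and share their scaling and composition.

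**Figure D4:**
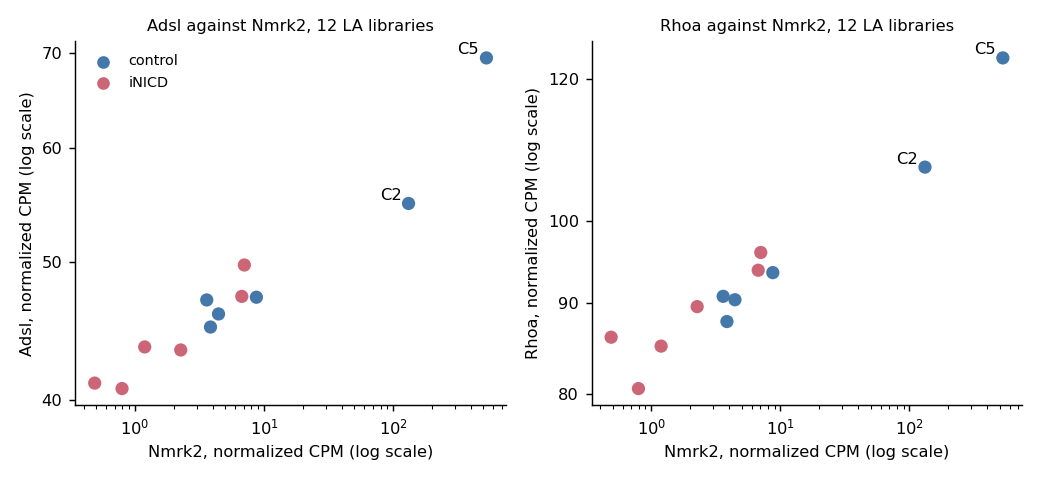
Normalized CPM of Adsl (left) and Rhoa (right) against Nmrk2, both axes on a log scale, with 1 point per LA library, controls in blue and iNICD in red. Control replicates 2 and 5 (C2, C5) lie at the upper right, where Adsl is 54.9 and 69.4, while Nmrk2 spans 0.487 to 529.6 normalized CPM.

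Within the set, correlations with Nmrk2 over 12 libraries ranged from -0.68 for Nampt and -0.66 for Nmrk1 to 0.55 for Nmnat3, and that of Nnmt was 0.33. Over 11 libraries they were -0.63 for Nampt, -0.19 for Nmrk1, 0.41 for Nmnat3 and -0.11 for Nnmt. Other genes in control replicate 5 were also far above the other controls. On the log2 scale its distance from its fellow controls was 6.11 for Mt2, a metallothionein, 5.81 for Nmrk2, 5.03 for Thbs1, which encodes thrombospondin, 4.77 for the noncoding Snhg11 and 4.59 for Ptx3, an acute-phase pentraxin. Mt2 was 297 normalized CPM in control replicate 5 but 5.79 in control replicate 2, and Ptx3 was 52.7 and 4.28. Snhg11 was 9.31 normalized CPM in control replicate 5 but 1.06 to 80.9 in iNICD. In control replicate 2, measured against controls 1, 3, 4 and 6, Nmrk2 was the gene furthest apart, at 4.75. Of the other 9 genes of the set, 1 lay at least 2-fold apart in each library, Nnmt in both.

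Marker genes were read beside the Nmrk2 values. The summed level of 7 skeletal muscle markers was 25.4 normalized CPM in control replicate 5, 20.2 in control replicate 2, 14.4 to 17.3 in the other controls and 9.38 to 15.1 in iNICD. Its myosin genes Myh1, Myh2 and Myh4 were all at or below 0.455 normalized CPM, and Mybpc2, at most 18.0 in any library, gave most of the sum in control replicate 5. Tnnt3, a fast skeletal troponin, was 5.29 normalized CPM there, against 0.833 to 1.84 in the other controls. The sum of 5 cardiomyocyte markers was 69264 in control replicate 5, 60729 in control replicate 2 and 55081 to 58380 in the other controls. The excess in control replicate 5 lay in Actc1, at 21932 against 15142 in control replicate 2 and 7484 to 8946 in the other controls, and in Ryr2, while Tnnt2, Myh6 and Tnni3 were within the range of the other controls. The sum of 5 smooth muscle and pericyte markers was 598 in control replicate 5, 459 in control replicate 2 and 298 to 369 in the other controls. Cnn1 gave 236 and 130 of the first 2 sums, against 4.14 to 24.6 in the other controls, while Kcnj8 was at its lowest control level in control replicate 5. The 5 endothelial markers summed to 961 in control replicate 5, 816 in control replicate 2 and 658 to 726 in the other controls. In control replicate 5 Pecam1, Cdh5 and Emcn lay above every other control, and Kdr and Tie1 lay below. The 5 fibroblast markers summed to 1689.7 there, against 1794 to 2320.3, with Pdgfra, Lum and Tcf21 below every other control and Dcn and Col1a1 within their range. The 4 ventricular markers summed to 4.73 normalized CPM in control replicate 5, within 3.39 to 5.87 in the other controls. The leukocyte sum was 48.1, within 40.5 to 57.8, with Cd68 and Cd3e above and Adgre1 and Cd79a below every other control. Adipocyte markers summed to 1.59, against 2.03 to 5.78, and epicardial and mesothelial markers to 200.7, against 215 to 288. The part of these differences in the level of Nmrk2 was not tested. The 4 atrial markers (Nppa, Sln, Myl4 and Myl7) summed to 34235 or more in every control, as fits the labelled tissue. In control replicate 5 they summed to 44024, in control replicate 2 to 39258 and in the other controls to at most 37750, and control replicate 5 had Nppa and Myl4 above and Sln and Myl7 below every other control. All 4 passed the edgeR test as lower in iNICD, as did Mybpc2 (log2 difference -1.02, adjusted p = 0.0321) and the cardiomyocyte marker Tnnt2 (-0.44, adjusted p = 0.0153). With 11 libraries these 6 genes passed again, and Tnnt3 passed as higher in iNICD (0.85, edgeR adjusted p = 0.0429), where over 12 libraries it had 0.27 (adjusted p = 0.769).

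A list of 55 related genes gave the rest of the pathway, with 51 genes of NAD synthesis, transport and use and 4 listed as regulators described for Nmrk2 in muscle. Of these, 46 were tested with 12 libraries, 4 were higher in iNICD, 0 were lower and 42 did not pass, where 2.78% of all tested genes were higher and 1.34% lower. With 11 libraries, 45 were tested, 4 were higher and 1 was lower, where the shares over all tested genes were 3.60% and 2.30%. The median log2 difference of the tested genes was 0.04. The 4 higher genes, the same in both fits, were Tnks, Aox1, Nt5c1a and Art3.

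Tnks encodes tankyrase, a poly-ADP-ribosyltransferase that spends NAD. Its level was 65.7, 60.0, 61.0, 60.1, 66.4 and 64.5 normalized CPM in controls and 119, 101, 105, 114, 101 and 102 in iNICD. The groups did not overlap. Tnks rose by 0.76 on the log2 scale (SE 0.06, edgeR adjusted p = 4.82e-06), and 0.78 with 11 libraries. Its paralog Tnks2 had a log2 difference of 0.04 (adjusted p = 0.771). Exons of Tnks overlap Gm9939 on the opposite strand.

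Aox1 and Nt5c1a belong to the conversion of precursors and products. Aox1 encodes aldehyde oxidase, which oxidizes the methylated nicotinamide made by NNMT. Its level was 37.9, 28.4, 35.6, 35.2, 18.2 and 49.0 normalized CPM in controls and 68.0, 69.4, 65.7, 67.1, 50.3 and 75.5 in iNICD, and no iNICD library fell to the control range. The log2 difference for Aox1 was 0.95 (SE 0.19, edgeR adjusted p = 0.0113) with 12 libraries and 0.83 (adjusted p = 0.00273) with 11. Nt5c1a, a cytosolic nucleotidase of striated muscle that acts on AMP, was 13.5, 10.7, 16.2, 14.5, 6.65 and 17.6 normalized CPM in controls and 24.9, 26.7, 19.2, 38.8, 28.2 and 33.2 in iNICD. Again the groups did not overlap, and control replicate 5 was the lowest library for both genes. The log2 difference of Nt5c1a was 1.11 (SE 0.22, edgeR adjusted p = 0.0121) with 12 libraries and 0.97 (adjusted p = 0.00521) with 11.

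Art3, a member of the mono-ADP-ribosyltransferase family, was 438, 436, 530.3, 395, 546 and 414 normalized CPM in controls and 734, 642, 627, 721, 610 and 514 in iNICD. The groups overlapped through iNICD replicate 6 alone, which lay below control replicates 3 and 5. The log2 difference was 0.48 (SE 0.11, edgeR adjusted p = 0.0226), and 0.53 with 11 libraries (adjusted p = 0.00878). The call was lost when control replicate 1, 2, 4 or 6 or iNICD replicate 1 or 4 was left out, with adjusted p between 0.0552 and 0.0692. Art3 overlaps Cxcl10 on the opposite strand.

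**Figure D5:**
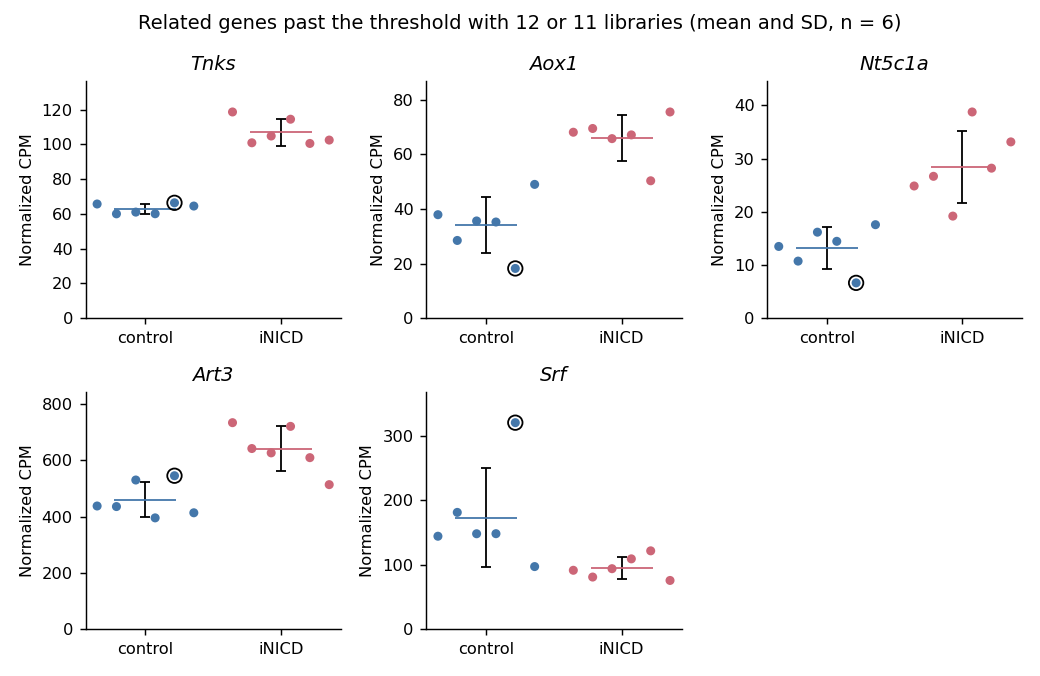
Normalized CPM of the related genes past the threshold with 12 or with 11 libraries, with controls in blue and iNICD in red, coloured lines at the group means, black bars for the SD (n = 6) and a black circle around control replicate 5. All iNICD points lie above all control points for Tnks, Aox1 and Nt5c1a, and for Srf the circled control, at 321, is the highest library.

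Srf, the factor that binds CArG boxes in muscle promoters, was listed as a regulator described for Nmrk2. Regulation was not tested, and the Nmrk2 window held no CArG box match. The level of Srf was 144, 181, 148, 148, 321 and 97.0 normalized CPM in controls and 91.3, 80.7, 93.8, 109, 122 and 75.5 in iNICD. The 2 highest controls were again replicates 5 and 2, and 4 iNICD libraries lay below all controls. The log2 difference was -0.86 (SE 0.24, edgeR adjusted p = 0.0629) with 12 libraries, which did not pass. With 11 libraries it was -0.60 (adjusted p = 0.0399), which did, and without control replicates 2 and 5 it was -0.50 (adjusted p = 0.0734), which did not. Srf passed in 7 of 25 alternatives. The correlation of Srf with Nmrk2 was 0.905 over 12 libraries, 0.801 over 11 and 0.717 over 10. Its rank was 148 of 13540 genes over 12 libraries, which include the one that selected Nmrk2, and 201 over 11. The other listed regulators did not pass, with log2 differences of 0.22 for Prkaa2 and 0.05 for Prkaa1, subunits of the energy sensor AMPK, and 0.08 for the lipid receptor gene Ppara.

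The remaining subgroups held no call in either fit. Of 9 genes of de novo synthesis from tryptophan, 2 were tested, Kmo and Afmid, with log2 differences of 0.26 (edgeR adjusted p = 0.572) and -0.15 (adjusted p = 0.698). The 6 sirtuins other than Sirt3 lay between -0.28 and 0.12. Sirt1, the nuclear deacetylase, was 30.7, 21.2, 30.6, 28.8, 27.7 and 27.5 normalized CPM in controls and 20.4, 26.3, 23.4, 19.7, 23.9 and 23.8 in iNICD. Its log2 difference of -0.28 (SE 0.10, edgeR adjusted p = 0.159) became -0.35 and passed (adjusted p = 0.0390) without control replicate 2, the only control within the iNICD range. Sirt1 passed in 2 of 25 alternatives, each leaving out control replicate 2, so the call rests on that choice. Sirt5 had -0.17 (adjusted p = 0.413).

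Among the NADP genes, the mitochondrial transhydrogenase gene Nnt was 655, 401, 643, 648, 357 and 651 normalized CPM in controls and 468, 509, 493, 517, 328 and 395 in iNICD. Control replicates 2 and 5 were here the lowest controls and lay among the iNICD values. The log2 difference was -0.31 (SE 0.17, edgeR adjusted p = 0.387) with 12 libraries and -0.41 (adjusted p = 0.138) with 11. Without both controls it was -0.52 (edgeR adjusted p = 0.0193). That fit was added after seeing the data and drops the 2 lowest controls for Nnt, so its pass is no support for a change. Nnt passed in 1 of 25 alternatives, this one. Nadk, the cytosolic NAD kinase, had -0.07 (edgeR adjusted p = 0.778), and Bst1, a glycohydrolase related to CD38, had -0.24 (adjusted p = 0.674). With 11 libraries these values were 0.04 for Nadk and -0.09 for Bst1.

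Of the remaining transporters and ADP-ribosyltransferases, those with the largest changes did not pass. Art5 was 20.0, 7.64, 14.3, 23.5, 3.09 and 28.1 normalized CPM in controls and 26.6, 28.8, 31.1, 24.4, 28.9 and 49.7 in iNICD, with a log2 difference of 0.97 (edgeR adjusted p = 0.227). Control replicates 5 and 2 were the lowest libraries for Art5. Slc12a8, a transporter gene described for NMN, had a log2 difference of 0.51 (edgeR adjusted p = 0.394), and Parp9 had 0.28 (adjusted p = 0.366). For Slc12a8 the difference was -0.24 in females alone and 1.54 in males alone, a fit with 2 controls. Nudt12, a hydrolase of NADH and NAD caps, had 0.22 (adjusted p = 0.274).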

How the data were processed

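LA tissue of 12 mice was measured by bulk RNA-sequencing of ribosomal RNA-depleted libraries. The authors deposited unnormalized read counts for each gene name, and a gene length in bases, an other unit used here for levels per kilobase. The submitters' processing notes name cutadapt, STAR 2.4.2a, Subread with featureCounts, edgeR and the build mm10, and the study's methods describe both a STAR and Subread route with GENCODE annotation and TopHat2 with HTSeq. The route behind the table and its strand setting are not given in the sources used here: the methods call the reads stranded, and the library kit they name does not mark strand, so reads of genes that overlap on opposite strands may not be told apart. The table holds 37 mitochondrially encoded names.

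Groups, sex and replicate numbers came from the titles and descriptions. The genes and lists were chosen with earlier results of these data known. Counts were scaled by TMM, and every gene above 1 CPM in 6 or more libraries entered a quasi-likelihood fit with edgeR 4.0.16 under R 4.3.3 (two-sided, Benjamini-Hochberg over all tested genes, threshold 0.05), with 12 libraries and with 11. Normalized CPM are counts per 1e6 of the TMM-scaled total, correlations used a prior count of 2, and 1 count equalled 0.0365 to 0.0468 normalized CPM. The TMM factor of control replicate 5 was 0.863. No library was a copy of another (lowest chi-square per gene within a group 16.7). Replicates were separate mice.

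The named related genes were all past the threshold with 12 or 11 libraries and otherwise the 2 with the largest absolute change in each subgroup. The genes named as most like Nmrk2 were the 5 highest correlations (1 gene is not reported here), and those apart in control replicate 5 the 5 largest differences among genes averaging 1 CPM or more. Positions came from GENCODE M21 on GRCm38, and upstream sequences from RefSeq. The alternatives were other normalizations, filters and tools (DESeq2 1.42.0, exact test), sex as a covariate, each sex alone, replicate blocks and each library left out. The fit without control replicates 2 and 5 was added after seeing the data. The scripts were tested on simulated data. The right atria of these mice were not analysed here.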

Additional observations from a re-analysis of the deposited data

Results flagged for a closer look

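Within groups of 6 libraries, 1 library was looked for that lay far from the others by Dixon's ratio of gap to range, in the 10 genes of the set and the named related genes. Nmrk2 in control replicate 5 was 529.6 normalized CPM, with the other 5 controls at 3.60 to 132, and this library had been chosen on that value. Of the 55 other groups, 3 held such a library, where chance flags about 1 in 20, or 2.75. Nadk was 89.9 normalized CPM in the same library, with the others at 55.3 to 66.6. Sirt1 was 21.2 normalized CPM in control replicate 2, with the others at 27.5 to 30.7. Art5 was 49.7 normalized CPM in iNICD replicate 6, with the others at 24.4 to 31.1.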

How the results depend on the processing

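The counts of 0 higher and 0 lower among the 9 genes other than Nmrk2 held in all 25 alternatives run, as did all 225 values of these genes on their side of the threshold. The log2 difference of Nmrk2 ran from -5.76 with males alone to -0.74 without control replicates 2 and 5 over the 24 alternatives that gave it a value, and its sign is no sign of stability, since most of them hold the library that selected the gene. Among the related genes, 4 were higher in the reported fit and 0 with males alone (2 controls), where 8 of all tested genes were higher, and 3 to 4 were higher with each library left out. The 0 lower became 1 with DESeq2, the edgeR exact test, sex as a covariate or females alone, each time Srf, 0 to 1 with each library left out, and 2 (Sirt1 and Nnt) without control replicates 2 and 5. Over all genes, DESeq2 called 615 higher and 444 lower, against 377 and 181, and males alone 8 and 1. With each library left out, the higher count ranged from 252 (iNICD replicate 4) to 486 (control replicate 5), and the lower count from 90 (iNICD replicate 1) to 310 (control replicate 5). The lower count also fell by more than 1.5-fold without control replicate 1 (111) or 4 (100) or iNICD replicate 2 (120), 3 (110) or 4 (103), and the cause was not tested.

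Same-numbered libraries did not all deviate together: 4 of 6 title pairs had a correlation over 0.1 (range -0.15 to 0.37), and 4 of 6 by description number. The replicate block by title gave 0 members either way and 1 lower related gene (Srf), with Art3 at an adjusted p of 0.0542, and the block by description left Nt5c1a at 0.0636. Scaling each library to a fixed total per kilobase changed the levels but, by construction, not the order of genes within a library. Counting error limits Kmo, with 13 to 44 counts per library.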
